A study of Homo sapiens with 6 samples.

Results

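Classical cadherins, catenins, nectins and afadin build the adherens junction, the belt that ties neighbouring epithelial cells together. Read counts of 10 of these genes were examined in SCC-9 cells, an established human cell line grown from a tongue squamous carcinoma. The genes were chosen by their symbols, with earlier results of these data known, and each of the 10 was found on 1 row of a table of 25349 genes. They are the classical cadherins CDH1, CDH2, CDH3 and CDH4, the catenins CTNNA1, CTNNB1 and CTNND1, and NECTIN1, NECTIN4 and AFDN. The cells had received 10 nM of siRNA, either to exon 7 of MKI67, which encodes the proliferation marker Ki67 (siE7), or nonspecific (siNC), on day 0 and again on day 2, with RNA taken on day 4. Both groups were passed and transfected alike, and 3 libraries of stranded mRNA were sequenced from each. All libraries come from a single cell line. The study lists 3 siRNAs against exon 7, and the sources used here do not say which was used for these libraries. They also do not say whether the libraries of a group came from separate cultures, so the p-values measure the spread between these libraries, which may be technical.

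A classical cadherin spans the membrane and binds the same kind of cadherin on the next cell. Inside the cell its tail holds p120-catenin (CTNND1), which keeps the cadherin at the surface, and β-catenin (CTNNB1), which carries α-catenin (CTNNA1), the link to actin filaments. β-catenin that is not bound at the junction is the transcriptional partner of TCF factors in Wnt signalling. Nectins are immunoglobulin-like adhesion molecules that start a contact and are tied to actin by afadin (AFDN). E-cadherin (CDH1) is the classical cadherin of epithelia, P-cadherin (CDH3) that of basal cells of stratified epithelia, and N-cadherin (CDH2) that of neural and mesenchymal cells. A fall of E-cadherin with a rise of N-cadherin, the cadherin switch, is a usual sign of epithelial to mesenchymal transition.

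The libraries held between 25608192 and 29550264 counts on genes. The targeted gene MKI67 stood at 1059 ± 26.7 CPM (counts scaled to the library size with TMM factors; SD, n = 3) with siNC and 115 ± 8.70 with siE7, a log2 fold change of -3.21 (SE 0.114, edgeR adjusted p = 6.7e-08). The library siE7 replicate 1 stood apart from the other siE7 libraries, with a chi-square per degree of freedom of 61.1 and 72.7 against them, where all other pairs within a group lay between 5.54 and 6.22. Calls of the 10 genes that change without it are given both ways. The 8 epithelial markers were all present and summed to between 23666 and 25107 CPM with siNC and between 20347 and 26691 with siE7, with KRT14 the largest part, which did not pass (log2 fold change 0.31, edgeR adjusted p = 0.083). Of the other 7, KRT18, KRT8, EPCAM, SFN, KRT5 and TP63 passed lower, with log2 fold changes from -1.27 (KRT18) to -0.33 (TP63), and KRT17 passed higher (0.70). The 6 fibroblast markers summed to between 16.5 and 19.6 CPM with siNC and between 18.2 and 24.2 with siE7, most of it COL1A1. The 4 endothelial markers stayed at or under 0.492 CPM in sum, and of 4 immune markers only CD68 had any read, at or under 0.122 CPM. In such bulk RNA, fewer cells with a transcript and less of it per cell cannot be told apart.

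Most of the cadherin and catenin genes were lower with siE7, and NECTIN4 alone among the 10 was higher beyond the threshold. Of the 10 genes, 7 passed edgeR's quasi-likelihood test at an adjusted p under 0.05, 1 higher and 6 lower. Over all 14661 genes tested, 34.0% passed, 18.0% higher and 16.0% lower. Where a log2 fold change above 1 or below -1 was also required, 4 of the 10 were differentially expressed genes (DEGs), against 12.2% of all genes tested. These were CDH1, CDH2 and CDH4, lower, and NECTIN4, higher. The libraries of the groups did not overlap for 8 of the 10 genes, against 47.6% of all genes tested. The median log2 fold change of the 10 genes was -0.45, beside 0.08 over all genes tested.

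**Figure D1:**
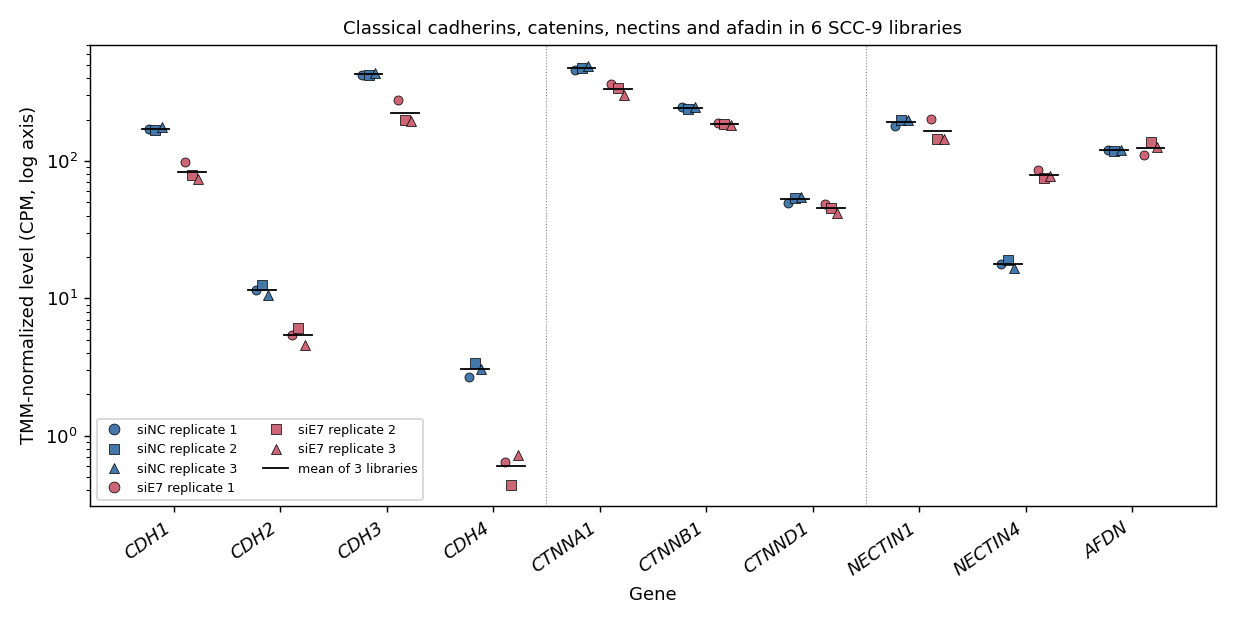
Level of each gene in each of the 6 libraries, in TMM-normalized CPM on a log axis, with blue points for siNC, red points for siE7 and a bar for the mean of 3 libraries. The 4 cadherins lie lower with siE7, NECTIN4 lies higher, and only NECTIN1 and AFDN overlap between the groups.

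All 4 cadherins among the 10 genes fell. CDH1 (ENSG00000039068.20, chr16:68737292-68835537, plus strand, GRCh38) stood at 170, 167 and 176 CPM in the siNC libraries and at 98.0, 79.3 and 73.4 CPM in the siE7 libraries. Its siE7 level was 48.8% of the siNC level, with a log2 fold change of -1.03 (SE 0.126, 95% interval -1.31 to -0.76, edgeR adjusted p = 1.4e-04). The lowest siNC library lay far above the highest siE7 library. Of the 8 epithelial markers, 6 were lower as well, and their part in this result was not tested. Since -1.03 is close to the limit of 1, whether CDH1 counts as a DEG depended on the setting: its log2 fold change was -0.87 when libraries were scaled to their totals alone and -1.23 without siE7 replicate 1, and its adjusted p stayed at or under 0.0020 in each of 13 alternatives.

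CDH3 (ENSG00000062038.15, chr16:68636189-68727468, plus strand), the neighbour of CDH1 on chromosome 16, was the more abundant of the pair. It had 425, 421 and 433 CPM with siNC and 278, 198 and 194 CPM with siE7. The siE7 libraries were lower throughout, and siE7 replicate 1 was the least lowered of them. The log2 fold change of CDH3 was -0.93 (SE 0.142, 95% interval -1.24 to -0.62, edgeR adjusted p = 5.6e-04), and -1.18 without siE7 replicate 1. CDH3 therefore passed the test without being a DEG, unless that library was left out.

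CDH2 (ENSG00000170558.10, chr18:27932879-28177946, minus strand) was a low transcript here. Its siNC levels were 11.5, 12.5 and 10.5 CPM, and its siE7 levels 5.40, 6.12 and 4.55 CPM. CDH2 RNA thus fell by about the same factor as CDH1 RNA, 2.15-fold and 2.05-fold, with no rise of CDH2 beside the fall of CDH1. Protein was not measured in these libraries. In the study, staining of mouse tumours from another cell line, with the same exon knocked down, showed more E-cadherin and less N-cadherin. The test gave CDH2 a log2 fold change of -1.10 (SE 0.178, 95% interval -1.49 to -0.71, edgeR adjusted p = 8.0e-04). Like CDH1, it is close to the limit for a DEG: it was -0.94 with libraries scaled to their totals, and without siE7 replicate 3 neither CDH1 nor CDH2 was a DEG.

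CDH4 (ENSG00000179242.16, chr20:61252261-61940617, plus strand), which encodes R-cadherin, a classical cadherin first known from retina, was the least abundant of the 10 and had the most negative log2 fold change of them. Its reads numbered 66, 85 and 81 with siNC and 19, 12 and 22 with siE7. In CPM these were 2.67, 3.40 and 3.07 against 0.641, 0.435 and 0.720. The groups were far apart although the counts are small. The log2 fold change of CDH4 was -2.33 (SE 0.292, 95% interval -2.97 to -1.69, edgeR adjusted p = 1.5e-04), and ranked 53 from the most negative of all genes tested.

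**Figure D2:**
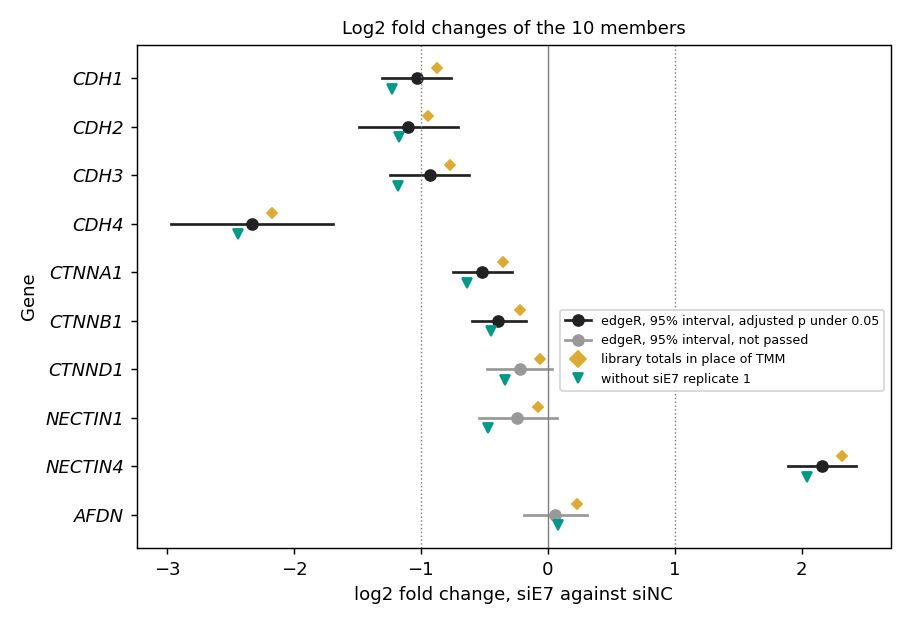
Log2 fold change of siE7 against siNC for each gene (x axis), with the edgeR estimate and its 95% interval (black where the adjusted p was under 0.05, grey where not), the estimate from library totals (diamonds) and that without siE7 replicate 1 (triangles). Dotted lines mark log2 fold changes of 1 and -1, and CDH1, CDH2 and CDH3 lie near the lower of them.

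The 4 cadherins fell together, and the shares of CDH1, CDH2 and CDH3 among them overlapped between the groups. Per kilobase of exon, the cadherins summed to 96.1, 95.3 and 98.4 CPM per kb with siNC and to 60.3, 44.8 and 43.0 CPM per kb with siE7. The sum was lower in every siE7 library, with an exact permutation p of 0.10, the lowest value possible with 3 libraries in each group. CDH3 made up 69.1% ± 0.174 of the sum with siNC and 70.6% ± 1.47 with siE7 (SD, n = 3), and CDH1 made up 29.1% ± 0.343 and 28.0% ± 1.20. CDH2 held 1.39% ± 0.145 and 1.29% ± 0.279, so that N-cadherin was a minor transcript of the set in both groups. The share of CDH4 went from 0.420% ± 0.0528 to 0.164% ± 0.0508, with no overlap between the groups.

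Of the 3 catenins, CTNNA1 and CTNNB1 passed lower and CTNND1 did not pass, with a median log2 fold change of -0.39, beside -1.07 over the 4 cadherins. The difference between these groups was not tested. CTNNA1 (ENSG00000044115.21, chr5:138610967-138935034, plus strand) had 462, 474 and 494 CPM with siNC and 361, 339 and 301 CPM with siE7. The RNA of α-catenin was thus lower in every siE7 library, at 69.9% of the siNC level. Its log2 fold change was -0.52 (SE 0.109, 95% interval -0.75 to -0.28, edgeR adjusted p = 0.0040), and it passed in each of the 13 alternatives.

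CTNNB1 (ENSG00000168036.18, chr3:41194741-41260096, plus strand) had the most even levels of the 10 genes among the siE7 libraries. They were 188, 187 and 184 CPM, against 247, 237 and 247 CPM with siNC. The log2 fold change of CTNNB1 was -0.39 (SE 0.0999, 95% interval -0.60 to -0.17, edgeR adjusted p = 0.012). This call was lost when libraries were scaled to their totals alone (log2 fold change -0.22, edgeR adjusted p = 0.058), without siNC replicate 1 (adjusted p = 0.063) and without siNC replicate 3 (adjusted p = 0.067). The gene ULK4 overlaps CTNNB1 on the other strand, but held 1047 counts over all libraries against 34910 on CTNNB1.

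CTNND1 (ENSG00000198561.16, chr11:57753243-57819546, plus strand) did not pass by its own row. Its levels were 49.4, 54.1 and 54.2 CPM with siNC and 48.4, 45.2 and 41.7 CPM with siE7, a log2 fold change of -0.22 (SE 0.116, 95% interval -0.48 to 0.03, edgeR adjusted p = 0.16). The row holds only part of the p120-catenin reads, however, since the readthrough gene TMX2-CTNND1 (chr11:57712582-57818431, same strand) shares its exons. Of the counts on both rows, CTNND1 held 10.0% to 10.9% in the siNC libraries and 11.7% to 12.1% in the siE7 libraries. TMX2-CTNND1 alone had a log2 fold change of -0.41 (SE 0.107, edgeR adjusted p = 0.012). When both rows were summed, a choice made after these values had been seen, the log2 fold change was -0.39 (edgeR adjusted p = 0.015). By its own row CTNND1 also passed without siE7 replicate 1 (log2 fold change -0.34, edgeR adjusted p = 1.6e-04). In that setting 8765 genes passed in all, against 4990. How the reads were divided between these rows is not given in the sources used here, so the level of CTNND1 is uncertain.

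NECTIN4 rose, against the direction of the cadherins. NECTIN4 (ENSG00000143217.9, chr1:161070998-161089558, minus strand) is a nectin of placenta, skin and many carcinomas, and the target of an antibody-drug conjugate used in bladder cancer. It had 438, 476 and 438 reads with siNC and 2533, 2075 and 2378 with siE7, which is 17.7, 19.1 and 16.6 CPM against 85.5, 75.2 and 77.8 CPM. Every siE7 library was far above every siNC library. The log2 fold change of NECTIN4 was 2.16 (SE 0.123, 95% interval 1.89 to 2.43, edgeR adjusted p = 8.0e-07), a 4.47-fold rise, which ranked 153 from the top among the 14661 genes tested. Over the 13 alternatives its log2 fold change lay between 2.04 and 2.32. A short antisense gene, NECTIN4-AS1 (chr1:161084465-161087571, plus strand), overlaps it and was also higher, with 2, 5 and 2 counts with siNC and 40, 46 and 33 with siE7. Whether the counting used the strand is not given in the sources used here, so reads of the antisense gene and of NECTIN4 cannot be told apart with certainty, but the antisense row held 128 counts in all against 8338 on NECTIN4.

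NECTIN1 (ENSG00000110400.11, chr11:119623408-119729200, minus strand), the more abundant nectin with siNC, had 181, 200 and 198 CPM with siNC and 201, 144 and 145 CPM with siE7. The groups overlapped only through siE7 replicate 1, the library that stands apart. With all libraries the log2 fold change was -0.24 (SE 0.140, 95% interval -0.54 to 0.07, edgeR adjusted p = 0.22). Without siE7 replicate 1 it was -0.47 (edgeR adjusted p = 5.8e-09), so whether NECTIN1 passed was decided by that library. Leaving it out raised the genes passing in all from 4990 to 8765, so the small adjusted p is not particular to NECTIN1.

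AFDN (ENSG00000130396.22, chr6:167826893-167972023, plus strand) showed no difference that the test could separate from the spread. AFDN RNA stood at 120, 118 and 121 CPM with siNC and at 111, 138 and 127 CPM with siE7. The siE7 libraries lay on both sides of the siNC libraries. Its log2 fold change was 0.06 (SE 0.113, 95% interval -0.19 to 0.31, edgeR adjusted p = 0.70), an interval that leaves room for a change of up to about 0.31 on the log2 scale, and the sign turned to -0.01 without siE7 replicate 2.

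Repressors of E-cadherin such as SNAI2, ZEB2 and TWIST1 bind E-boxes, so the 250 bases before the transcription starts of the members were searched for the E-box letters CAGGTG and, for the other strand, CACCTG. A table of RefSeq promoters (GRCh38.p14), which is not complete, gave 11 starts for 6 of the 10 genes, several of them of the same gene. The promoters of CDH1, CDH3, CTNND1 and NECTIN1 were not analysed here. The E-box letters were found before 3 of the 11 starts, beside 17.5% of 35116 starts of all genes. The sequences before NECTIN4 (chr1:161089559-161089808, minus strand), which rose, before AFDN (chr6:167827385-167827634, plus strand), which did not pass, and before the upstream start of CDH2 (chr18:28177131-28177380, minus strand), which fell, are shown because they differ both in response and in these letters. Each is written 5′ to 3′ and ends at the base before the start, with E-box letters in capitals.

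NECTIN4: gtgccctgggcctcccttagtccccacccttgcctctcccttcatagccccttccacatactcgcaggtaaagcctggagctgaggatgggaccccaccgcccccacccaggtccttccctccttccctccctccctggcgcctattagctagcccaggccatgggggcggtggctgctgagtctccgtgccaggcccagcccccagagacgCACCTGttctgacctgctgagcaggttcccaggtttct
AFDN: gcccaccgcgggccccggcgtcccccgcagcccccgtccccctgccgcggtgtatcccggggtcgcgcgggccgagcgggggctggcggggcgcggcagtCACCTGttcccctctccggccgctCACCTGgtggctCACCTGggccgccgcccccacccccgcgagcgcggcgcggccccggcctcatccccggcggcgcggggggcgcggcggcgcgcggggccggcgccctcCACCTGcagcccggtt
CDH2: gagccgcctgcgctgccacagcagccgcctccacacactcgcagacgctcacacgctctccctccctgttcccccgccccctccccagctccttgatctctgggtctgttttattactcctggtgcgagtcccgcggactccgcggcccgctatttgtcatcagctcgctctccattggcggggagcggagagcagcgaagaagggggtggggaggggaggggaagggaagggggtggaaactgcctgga

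NECTIN4 has 1 match, which begins 38 bases before the start. AFDN has 4 matches, which begin 150, 126, 114 and 16 bases before its start, and the CDH2 window has none. The third start with a match, 1 of the 2 listed for CDH4, has it 16 bases before the start. The AP-1 letters TGANTCA, read on both strands, occurred before 1 of the 11 starts, the other start of CDH2, and before 6.57% of all starts. A match of letters describes the window only and is no sign that a factor bound there.

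Levels of different genes were compared per kilobase of exon. With siNC the order was CDH3 (66.7 CPM per kb), CTNNA1 (54.0), CDH1 (28.2), NECTIN1 (24.6), CTNNB1 (20.7), AFDN (8.71), NECTIN4 (5.15), CTNND1 (3.46), CDH2 (1.34) and CDH4 (0.406), and no neighbours in this order overlapped between libraries. With siE7 the highest level was that of CTNNA1 (37.7 CPM per kb), followed by CDH3 (34.9), NECTIN4 (23.0), NECTIN1 (20.9), CTNNB1 (15.9), CDH1 (13.8), AFDN (9.09), CTNND1 (2.97), CDH2 (0.624) and CDH4 (0.0796). NECTIN4 moved from rank 7 to rank 3, and CDH1 from rank 3 to rank 6. In the siE7 libraries CTNNA1 overlapped with CDH3, NECTIN4 with NECTIN1, and CTNNB1 with CDH1. CTNND1 is placed too low where its reads were counted on TMX2-CTNND1. With the length of the longest transcript in place of all exons, CTNNA1 came before CDH3 with siNC as well, CTNNB1 held rank 3 in both groups, NECTIN4 moved from rank 8 to rank 5 and CDH1 from rank 4 to rank 6.

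Ratios of genes within a library do not depend on the scaling between libraries, and 8 of them were compared by exact permutation tests, in which p = 0.10 is the smallest value possible. The log2 ratio of CDH2 to CDH1, which measures the cadherin switch in RNA only, was -3.90 ± 0.17 with siNC and -3.96 ± 0.25 with siE7 (SD, n = 3), a difference of -0.06 (exact permutation p = 0.80). Its libraries overlapped, and the difference turned to 0.02 without siNC replicate 2 and to 0.05 without siE7 replicate 1. The ratio of CDH3 to CDH1 differed by 0.09 (exact permutation p = 0.20) and also overlapped. The groups were separate for 3 ratios. CTNNB1 gained on CDH1 by 0.66 on the log2 scale, from 0.51 ± 0.03 to 1.17 ± 0.20, CDH4 lost on CDH1, with a difference of -1.30, and NECTIN4 gained on NECTIN1 by 2.41, each with an exact permutation p of 0.10 and 0.27 after Benjamini-Hochberg adjustment over the 8 ratios. Among the catenins, the ratio of CTNNA1 to CTNNB1 differed by -0.13 and that of CTNND1 to CTNNB1 by 0.16 (exact permutation p = 0.20 for both), with overlap. The latter used the CTNND1 row alone, with 10.0% to 12.1% of the counts on it and TMX2-CTNND1. Both rows summed had a log2 fold change of -0.39, and CTNNB1 one of -0.39. The ratio of AFDN to NECTIN1 differed by 0.31 (exact permutation p = 0.40), and siE7 replicate 1, at -0.86, was below every siNC library while the other siE7 libraries, at -0.07 and -0.20, were above them.

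**Figure D3:**
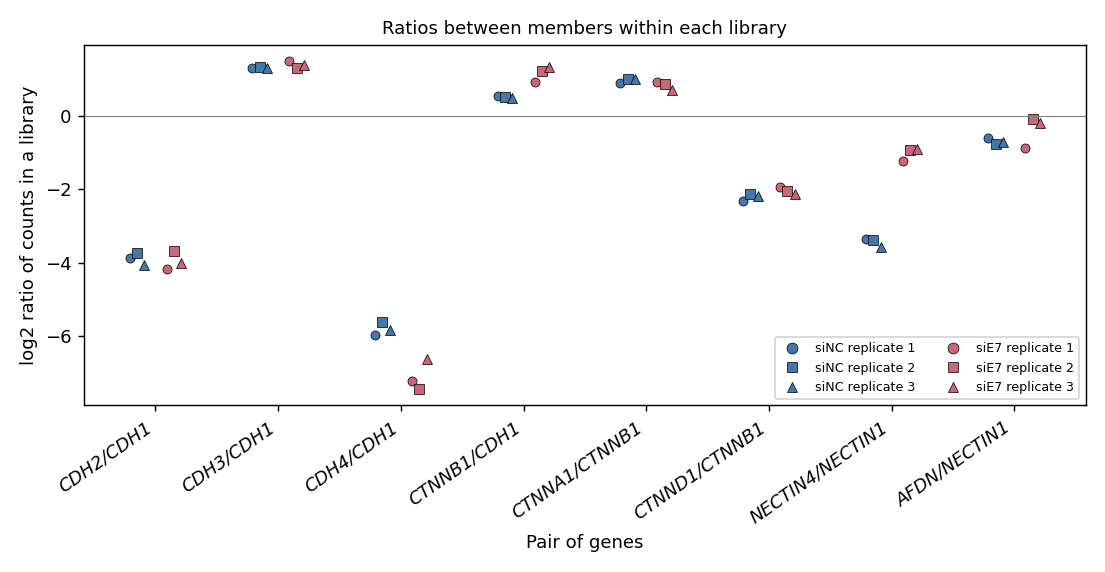
Log2 ratio of the counts of 2 genes within each library (y axis) for the 8 pairs compared (x axis), with blue points for siNC and red points for siE7. The groups are separate for CDH4/CDH1, CTNNB1/CDH1 and NECTIN4/NECTIN1, and overlap for the other 5 pairs, CDH2/CDH1 among them.

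The genes that bind, turn over or control these members were described by 7 lists of 93 genes, of which 73 were tested. Of these, 10 passed higher and 29 lower, with a median log2 fold change of -0.25. Over all genes tested, 18.0% passed higher and 16.0% lower, with a median of 0.08. Among cadherins outside the 10 genes, 4 of the 12 in the table were tested, since most had few reads, and 1 passed in each direction. Without siE7 replicate 1, 2 passed lower, beside 4422 of the 15011 genes then tested. CDH13 (T-cadherin, which lacks the tail that binds catenins) fell from between 23.4 and 27.9 CPM to between 7.28 and 8.54 CPM, a log2 fold change of -1.68 (SE 0.151, edgeR adjusted p = 1.6e-05), like the 4 cadherins among the 10 genes. CDH8 rose by 1.25 on the log2 scale (SE 0.386, edgeR adjusted p = 0.027) from under 1 CPM. This call was lost when any of 4 of the 6 libraries was left out (edgeR adjusted p from 0.064 to 0.10). It was also lost with DESeq2 (DESeq2 adjusted p = 0.064).

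Of the 16 tested partners of the catenins, 11 passed lower and 1 higher, beside 16.0% lower and 18.0% higher over all genes tested, with a median log2 fold change of -0.66. With single libraries left out, between 8 and 12 passed lower, while the number over all genes ranged from 1552 to 4422, against 2351. The fallen genes include ACTN1, the actin crosslinker α-actinin, from 5043 to 1939 CPM (log2 fold change -1.38, edgeR adjusted p = 1.7e-05), and SHROOM3, which recruits the contractile machinery to the junction (log2 fold change -1.46, edgeR adjusted p = 8.3e-06). ARVCF, a relative of p120-catenin, went from 9.03 to 2.44 CPM (log2 fold change -1.88, edgeR adjusted p = 9.1e-05). PLEKHA7, which binds p120-catenin and holds microtubule ends at the junction, was the gene that rose, from 54.4 to 93.3 CPM (log2 fold change 0.78, edgeR adjusted p = 3.7e-04).

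Of 10 partners of nectins and afadin, 4 passed lower and 1 higher, beside 16.0% lower and 18.0% higher over all genes tested. Only 2 passed lower when any siNC library was left out, without siE7 replicate 2 or with libraries scaled to their totals, and 6 without siE7 replicate 1. Among all genes, between 1552 and 1838 passed lower at the former settings, and 4422 without siE7 replicate 1, against 2351. The related adhesion molecules NECTIN2 (log2 fold change -0.57, edgeR adjusted p = 0.0069), PVR (-0.42, adjusted p = 0.021) and CADM1 (-1.19, adjusted p = 2.7e-04) fell, so that among the nectins and nectin-like genes named here the rise was that of NECTIN4. NECTIN3 had a log2 fold change of 0.03 (edgeR adjusted p = 0.95). PARD3, a polarity protein that binds nectins, was higher by 0.35 (edgeR adjusted p = 0.041). The calls of PARD3 and PVR were each lost when any of 5 of the 6 libraries was left out (edgeR adjusted p from 0.13 to 0.15 and from 0.063 to 0.10). That of PARD3 was also lost with DESeq2 (DESeq2 adjusted p = 0.095). The same held in edgeR with RLE scaling (adjusted p = 0.075), no count filter (0.079) or a replicate block (0.076). PVR lost its call with library totals (edgeR adjusted p = 0.055).

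Among 20 genes of junction turnover (kinases, phosphatases, proteases and small GTPases that act on cadherins and catenins), 9 passed lower and 2 higher. Over all genes tested, 16.0% passed lower and 18.0% higher. Without siE7 replicate 1, 14 passed lower, beside 4422 of the 15011 genes then tested. With siNC replicate 1 or siNC replicate 2 left out, 6 did, beside 1596 of 15138 and 1590 of 15134 genes. The number thus moved in the same direction as that over all genes. The receptor phosphatases moved in both directions. PTPRF fell from 430 to 207 CPM (log2 fold change -1.05, edgeR adjusted p = 1.9e-04) and PTPRK from 38.0 to 25.4 CPM (log2 fold change -0.58, edgeR adjusted p = 0.0035). PTPRM rose from 4.63 to 11.1 CPM (log2 fold change 1.27, edgeR adjusted p = 2.1e-04) and PTPRJ from 13.9 to 24.8 CPM (log2 fold change 0.84, edgeR adjusted p = 0.0013). PTPN1, a phosphatase that acts on β-catenin at the cadherin tail, and IQGAP1, a scaffold that competes with α-catenin for β-catenin, fell by 0.67 and by 0.80 on the log2 scale (edgeR adjusted p = 5.3e-04 and 0.0013).

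In the list of 8 genes that destroy or hold back free β-catenin, 1 passed higher and 2 lower, beside 34.0% passing in either direction over all genes tested, so that the count is near the background. Without siE7 replicate 1, 3 passed higher and 4 lower, beside 8765 of the 15011 genes then tested that passed in either direction. With siNC replicate 1, siNC replicate 3 or siE7 replicate 3 left out, 1 passed lower, beside between 1552 and 1919 of all genes. AXIN2, a scaffold of the destruction complex that is itself a target of β-catenin, rose from 0.932, 0.921 and 1.25 CPM to 14.5, 14.6 and 13.3 CPM (log2 fold change 3.76, SE 0.205, edgeR adjusted p = 6.6e-07). CTNNBIP1, which blocks β-catenin from binding TCF, fell from 158, 177 and 156 CPM to 44.2, 31.7 and 35.8 CPM (log2 fold change -2.14, SE 0.140, edgeR adjusted p = 2.5e-06). Both moved while CTNNB1 itself was 1.31-fold lower. APC was lower by the test (log2 fold change -0.75, edgeR adjusted p = 0.044), a call lost without siNC replicate 1, siNC replicate 3 or siE7 replicate 3 (edgeR adjusted p = 0.21, 0.095 and 0.067). It was also lost with library totals or with at least 10 counts in every library (edgeR adjusted p = 0.14 and 0.052).

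Of 9 repressors of CDH1, 6 were tested, 3 passed higher and all 6 had a log2 fold change above 0, with a median log2 fold change of 0.70. Over all 14661 genes tested, 18.0% passed higher, 8154 had a log2 fold change above 0 and the median was 0.08. With library totals in place of TMM, 5 passed higher, without siNC replicate 2 or siE7 replicate 3 there were 2, and without siE7 replicate 1 there were 4. The numbers over all genes moved likewise, to 4030 with library totals and 4343 without siE7 replicate 1, against 2639. They were 1598 without siNC replicate 2 and 2072 without siE7 replicate 3. SNAI2 (Slug) went from 127, 114 and 125 CPM to 265, 337 and 318 CPM (log2 fold change 1.33, SE 0.122, edgeR adjusted p = 1.9e-05), and TWIST1 from 13.1 to 30.0 CPM (log2 fold change 1.20, edgeR adjusted p = 7.2e-05). ZEB2 was higher by 0.83 (edgeR adjusted p = 0.012), a call lost without siNC replicate 2 (edgeR adjusted p = 0.071) or siE7 replicate 3 (0.051). SNAI1, ZEB1 and TWIST2 had at most 13 reads in any library and were not tested. Of 9 genes that keep the epithelial state, KLF4, which activates CDH1 in epithelia, rose from between 5.80 and 6.13 CPM to between 11.9 and 13.8 CPM (log2 fold change 1.12, edgeR adjusted p = 3.3e-04), ESRP2 and GRHL3 were lower by the test (log2 fold change -0.51 and -0.56, edgeR adjusted p = 0.0089 and 0.044), and the other 6 did not pass. These 3 of 9 are near the 34.0% of all genes that passed in either direction. The number lower was 3 without siE7 replicate 1 and at most 1 when any other library was left out. Among all genes it was 4422 and between 1552 and 1919, against 2351. The call of GRHL3 was lost when any of 5 of the 6 libraries was left out (edgeR adjusted p from 0.071 to 0.17), and that of ESRP2 without siNC replicate 3 (edgeR adjusted p = 0.050). GRHL3 also lost its call with library totals (edgeR adjusted p = 0.13), upper-quartile scaling (0.052) or no count filter (0.059). It did so too with at least 10 counts in every library (0.051) or a replicate block (0.070).

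**Figure D4:**
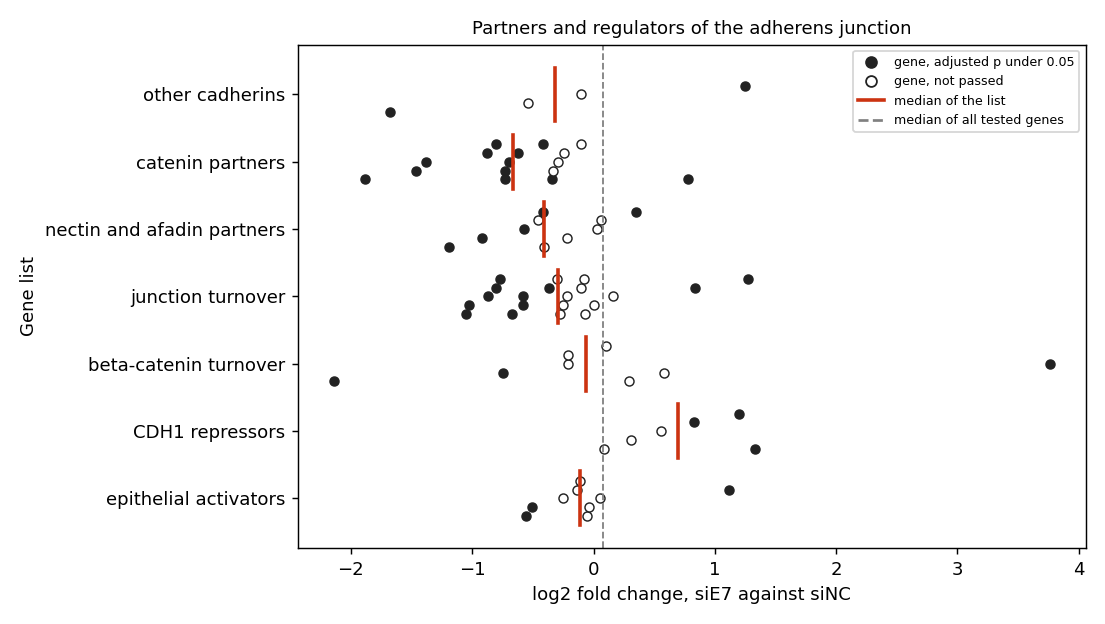
Log2 fold change of siE7 against siNC (x axis) for each tested gene of the 7 lists (y axis), filled where the adjusted p was under 0.05, with the median of each list in red and that of all tested genes dashed. The catenin partners lie mostly below 0, the CDH1 repressors lie above it, and AXIN2 and CTNNBIP1 mark the ends of the list for β-catenin turnover.

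The genes whose levels over the 6 libraries were most like those of CDH1, by the root mean square difference of centred log2 CPM, were CCDC9B (0.0200), MAP2K3 (0.0279), PTPRF (0.0315), ARRB1 (0.0398) and DNM2 (0.0407), with log2 fold changes from -1.09 to -1.03. Among the 5 most like NECTIN4 were LRRC27 (0.0924), FOXO4 (0.134), PPFIA3 (0.161) and ODAD4 (0.162). The differences were smaller for the genes like CDH1 than for those like NECTIN4, for a reason that was not tested. Both sets were picked by levels in siNC and siE7 libraries together, so their similar log2 fold changes follow from the choice.

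CDH3 and CDH1 lie side by side on chromosome 16, with 9823 bases between them. Of the other tested genes within 250 kb of the pair, TANGO6 passed lower (log2 fold change -0.44, edgeR adjusted p = 0.026), and the 2 others did not pass. Among all genes tested, 16.0% passed lower, so genes this few show nothing about the region. Around NECTIN4, 5 of the 19 genes tested within 250 kb passed higher, beside 18.0% higher among all genes. NECTIN4-AS1, whose reads cannot be told apart from those of NECTIN4 with certainty, is among these 5. These windows were chosen after values had been seen. The nearest were NECTIN4-AS1 (log2 fold change 3.47), ARHGAP30 (1.40), which lies 1028 bases from NECTIN4, and KLHDC9 (1.97), and F11R, the junctional adhesion molecule A gene in the same window, had a log2 fold change of 0.06 (edgeR adjusted p = 0.69).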

How the data were processed

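RNA of 6 libraries (siNC and siE7, n = 3 each) was compared. The authors deposited raw counts per gene. HISAT2, DESeq2 and GRCh38 are named in the submitters' processing notes without version or role, and the counting program, annotation release and use of strand are not given in the sources used here. From the counts, edgeR 4.0.16 (R 4.3.3) kept 14661 genes (filterByExpr), scaled libraries by TMM and tested siE7 against siNC by the quasi-likelihood F-test with robust dispersions and Benjamini-Hochberg adjustment over all genes tested. SE came from the log2 fold change and F. Ratios used counts with 0.5 added, and likeness of pattern used CPM with 0.5 added. Lengths and positions come from GENCODE v44 (GRCh38), in which 25283 of 25349 identifiers matched without their version and 20655 with it. Identifiers are printed with the GENCODE v44 version, which is that of the counts for 9 of the 10 genes but not for AFDN. Alternatives were DESeq2 1.42.0, RLE, upper-quartile or no composition scaling, no count filter, at least 10 counts in every library, a replicate block and each library left out. Named were all members, the 3 higher and 3 lower passed genes of smallest p in each list, markers, and the 5 genes most like CDH1 and NECTIN4. PTPRK was named besides, as a further receptor phosphatase of its list. The members and lists were chosen with earlier results of these data known.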

Additional observations from a re-analysis of the deposited data

How the results depend on the processing

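Libraries scaled to their totals in place of TMM factors gave a median log2 fold change of 0.25 over all tested genes against 0.08, a shift of 0.17, and 71.2% of the passed genes were then higher against 52.9% (76.2% of DEGs against 60.4%). Under that scaling 2 members were DEGs against 4, 19 partner genes passed lower against 29, and 4030 genes in all passed higher against 2639. No direction of a member turned under another scaling. With single libraries left out, DEGs among the members ranged from 2 to 5, passed members from 6 to 9, and partner genes passed lower from 19 to 41. Passed genes in all ranged from 3153 to 8765, with 1598 to 4343 higher and 1552 to 4422 lower, against 4990, 2639 and 2351. The highest of each came without siE7 replicate 1, and the member DEGs were fewest without siE7 replicate 3. AFDN ranged from -0.01 to 0.08 on the log2 scale. The difference in the CDH2 to CDH1 ratio ranged from -0.20 to 0.05. The cause was not tested. DESeq2 passed 4858 genes, with 7 members. With the longest transcript, siNC levels in CPM per kb were 35.6 for CDH1, 2.86 for CDH2, 95.8 for CDH3, 0.456 for CDH4, 124 for CTNNA1, 49.8 for CTNNB1, 6.97 for CTNND1, 32.4 for NECTIN1 and 15.0 for AFDN.

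The sources used here do not say whether the replicate numbers pair the samples. Deviations from the group means had correlations of -0.039, -0.021 and -0.052 between same-numbered libraries. These cannot decide it, since siE7 replicate 1 makes up most of the spread within its group. With a replicate block 4947 genes and 7 members passed. The 24 partner genes named gave 312 values over the alternatives, of which 274 kept their call, 38 lost it and none turned. Depth limits the genes of few reads, such as CDH4, CDH8 and NECTIN4-AS1.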
